A study of Mus musculus with 9 samples.

Results

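The genes described here are 10 epithelial identity factors and junction genes: the cadherin Cdh1, the adhesion molecule Epcam, the tight junction genes Cldn3, Cldn4, Cldn7 and Ocln, the transcription factors Grhl1, Grhl2 and Ovol1, and the splicing regulator Esrp1. They were taken by gene name, and all 10 were found among 52306 gene names in the expression table. RNA-seq libraries were made at day 2 from 4T1, an established line of mouse mammary carcinoma cells. The 9 libraries formed 3 groups of 3: cells labelled as negative control (NC), cells treated with MK1775 (also called adavosertib, which inhibits the cell-cycle kinase Wee1), and cells whose label is a Wee1 knockdown by small interfering RNA (siRNA). All groups grew in DMEM with fetal bovine serum, and the series sets each treated group against NC. The sources used here do not give what NC received, the dose of MK1775, or whether the siRNA numbers stand for replicates or for different siRNAs.

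Epithelial cells are held together by adherens junctions, built on E-cadherin (Cdh1), and by tight junctions, built on claudins and occludin (Ocln). Grainyhead-like factors such as Grhl2 are known to activate junction genes. Ovol1 represses mesenchymal regulators, and Esrp1 directs the epithelial form of splicing. Loss of these genes and gain of factors such as Twist1, Snai1 and Zeb1 mark the epithelial-mesenchymal transition (EMT), and mammary carcinoma lines can hold features of both states.

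Values are FPKM, fragment numbers scaled for transcript length and for the size of the library, summed over the transcripts of a gene. The tables carry no read totals, so the depth is unknown. Summed FPKM was 321551 to 332950 per library, and 17345 to 17524 gene names were above 0 in NC libraries against 20747 to 21483 in the treated ones. Whether the broader detection in treated libraries plays a part in the differences of low genes was not tested. Wee1 was at 10.5 to 11.5 FPKM in NC, at 14.7 to 16.8 under MK1775 and at 13.1 to 15.3 under the Wee1 siRNA label. The siRNA target was thus not lower in any of those libraries, so directions drawn from that group rest on its label. Separate cultures are not stated for the replicates of a group, and p-values then measure only the spread between these libraries, which may be technical. In bulk samples, fewer cells that express a gene and less RNA per cell cannot be told apart.

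RefSeq promoter windows (build GRCm38.p6) were matched for 6 of the 10 genes, in 9 windows. No window was matched for Cdh1, Grhl2, Esrp1 and Ovol1. The windows of Cldn3, Cldn4 and Epcam are shown because Cldn3 and Cldn4 are neighbours at very different levels and Epcam is a low gene that was higher after both treatments. Each is the 250 bases before the start of transcription, 5′ to 3′ on the gene's strand, with capitals marking the E-box CACCTG or its reverse complement CAGGTG, letters that repressors of the Snail and Zeb families are known to bind.
Cldn3 promoter, chr5:134985964-134986213, plus strand: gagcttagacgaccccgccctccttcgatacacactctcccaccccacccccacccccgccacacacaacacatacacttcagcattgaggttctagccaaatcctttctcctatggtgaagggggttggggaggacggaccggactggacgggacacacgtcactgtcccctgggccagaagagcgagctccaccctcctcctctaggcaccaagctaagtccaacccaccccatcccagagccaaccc
Cldn4 promoter, chr5:134946935-134947184, minus strand: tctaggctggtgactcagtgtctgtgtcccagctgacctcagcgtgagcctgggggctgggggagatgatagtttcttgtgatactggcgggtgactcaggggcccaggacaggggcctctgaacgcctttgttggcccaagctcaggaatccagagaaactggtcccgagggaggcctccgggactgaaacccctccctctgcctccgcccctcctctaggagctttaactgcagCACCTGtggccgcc
Epcam promoter, chr17:87635729-87635978, plus strand: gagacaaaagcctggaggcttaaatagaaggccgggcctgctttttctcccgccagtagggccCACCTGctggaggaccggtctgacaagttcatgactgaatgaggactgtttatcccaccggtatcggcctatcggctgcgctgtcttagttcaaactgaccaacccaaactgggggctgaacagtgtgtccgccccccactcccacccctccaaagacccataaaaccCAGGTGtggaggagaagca

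The Cldn4 window held 1 E-box, whose first base lies at position -14 from the start, and the Epcam window held 2, at -187 and -19. The Cldn3 window held none. Of the other windows matched, 1 of the 2 for Ocln and 1 of the 2 for Cldn7 held 2 E-boxes each, and both Grhl1 windows held none. Of 32851 RefSeq windows of this length, 17.2% held an E-box. A letter pattern of Grainyhead-like factors, AACCNGNTT or its reverse complement AANCNGGTT, was in 0 of the 9 windows, as against 2.01% of all windows. With so few windows, a count of 0 cannot be told from that share. These are matches of letters only, searched on both strands.

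In NC the 10 genes spanned a wide range of levels per length. Cldn3 stood highest, at 18.2 ± 1.21 FPKM (SD, n = 3), followed by Ocln at 5.06 ± 0.196 and Cdh1 at 2.80 ± 0.171, and the ranges of these 3 did not overlap. The other 7 genes lay below 0.32 FPKM in every NC library. In order of mean they were Cldn4, Grhl1, Cldn7, Epcam, Grhl2, Esrp1 and Ovol1, each overlapping the next, with Ovol1 listed at 0 in all 3. Under both treatments Cldn3 stayed first, Cdh1 and Ocln overlapped each other, and Grhl2 moved up to the fourth place, apart from its neighbours. Esrp1, Ovol1 and Cldn7 were listed at 0 in 2, 4 and 4 of the 9 libraries. Of 6537 genes whose mean reached 5 FPKM, 19 were also listed at 0 in some library, so such a value can, if rarely at that level, be a failed estimate. For genes as low as Esrp1, Ovol1 and Cldn7, a failed estimate and a low level cannot be told apart. Measured against all genes tested, Cldn3 lay above 74.0% of them in NC, Ocln above 38.8% and Cdh1 above 23.0%.

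As a check of the cell type, the luminal keratins Krt8 and Krt18 were at 196 ± 12.9 and 251 ± 22.7 FPKM in NC, beside the mesenchymal intermediate filament Vim at 662 ± 239 in its named transcripts (SD, n = 3). Of the 6 keratins on the marker list 4 reached a mean of 1 FPKM. Krt19, Krt14 and Krt5 (named after their values were seen) were low in NC, at 1.45 ± 0.212, 0.0530 ± 0.0168 and 0 FPKM. The epithelial junction genes Epcam, Cldn4 and Cldn7 were thus near 0 in cells where Krt8 and Krt18 were abundant. Of 8 stromal markers 1 reached a mean of 1 FPKM, of 8 immune markers 2 did, and of 4 endothelial markers none did. The summed level of the stromal markers was 2.21 to 3.60 FPKM in NC, 2.12 to 2.72 under MK1775 and 2.39 to 2.91 under the siRNA label. The immune sum was 8.72 to 10.1, 5.44 to 7.76 and 6.78 to 8.64, most of it Cd14 and Cd68. The immune markers Cd3e, Adgre1 and Lyz2 were listed at 0 in all 9 libraries, but Ptprc was at 0 to 0.0263 FPKM in NC and at 0.0238 to 0.698 in the treated libraries, and Itgam was at 0 in NC and at 0.167 to 0.545 in the treated ones. Their part in the results was not tested.

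**Figure D1:**
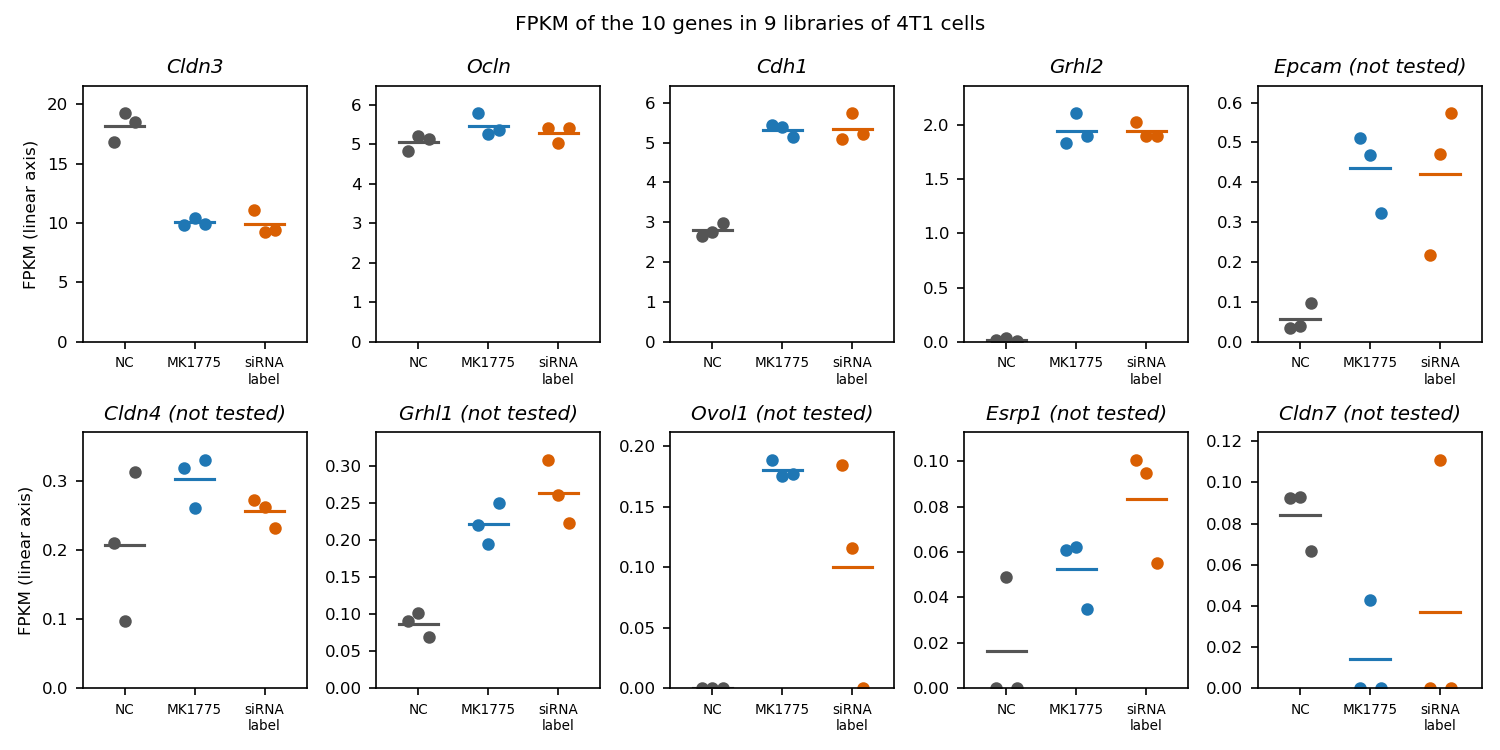
FPKM (linear axes from 0, each gene on its own scale) of the 10 genes in the 3 NC, 3 MK1775 and 3 siRNA-labelled libraries. Points are libraries and lines are group means. Cdh1 and Grhl2 are higher and Cldn3 is lower in all 6 treated libraries than in NC, and Ocln stays between 4.84 and 5.78 FPKM.

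The limma test was run on log2(FPKM + 1) for genes whose mean reached 1 FPKM, and 4 of the 10 passed that minimum: Cdh1, Grhl2, Cldn3 and Ocln. Grhl2 passed it through the treated libraries alone. Cdh1 and Grhl2 rose and Cldn3 fell in both comparisons with NC, and Ocln was not called in either. Across 10453 genes tested, 41.0% were called under MK1775 and 42.8% under the siRNA label, at a Benjamini-Hochberg adjusted p under 0.05, so a count of 3 of 4 stands against a background where calls are common. Groups that did not overlap were also common: 23.8% of tested genes lay wholly above NC and 30.1% wholly below under MK1775, and 24.1% and 28.1% under the siRNA label. The same 3 NC libraries serve both comparisons.

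Grhl2, the Grainyhead-like factor of epithelial identity, spans chr15:37233280-37363813 (GRCm39, plus strand, over its named transcripts). Its FPKM was 0.0197, 0.0347 and 0.00608 in NC, 1.83, 2.10 and 1.89 under MK1775, and 2.03, 1.89 and 1.90 under the Wee1 siRNA label. All 6 treated libraries stood far above the NC libraries, where the gene was close to 0. The difference was 1.53 under MK1775 (SE 0.075, 95% interval 1.36 to 1.70, limma adjusted p = 4.10e-06) and 1.53 under the siRNA label (SE 0.075, 95% interval 1.35 to 1.70, adjusted p = 4.09e-06), on the log2(FPKM + 1) scale. Since Grhl2 passed the minimum through its own treated values, the fit of all 28692 genes without a minimum bears on it too, and there the adjusted p was 3.63e-05 and 3.56e-05. With a pseudocount of 0.1 in place of 1 both came to 4.09, and with quantile normalization they came to 1.07 and 1.01.

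Cdh1, the E-cadherin gene, spans chr8:107329983-107396878 (plus strand). It was at 2.66, 2.75 and 2.99 FPKM in NC, at 5.45, 5.39 and 5.13 under MK1775, and at 5.08, 5.73 and 5.22 under the siRNA label. Every treated library lay above every NC library, and the group means differed 1.90-fold under MK1775 and 1.91-fold under the siRNA label. On the log2(FPKM + 1) scale Cdh1 rose by 0.74 in both comparisons (SE 0.069 each, limma adjusted p = 0.000108 and 0.000102).

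Cldn3, a tight junction claudin and the most highly expressed of the 10 genes, went the other way. It spans chr5:135015068-135016326 (plus strand), in a single transcript of 1 exon. The gene was at 16.9, 19.2 and 18.5 FPKM in NC, at 9.84, 10.4 and 9.95 under MK1775, and at 11.1, 9.28 and 9.46 under the siRNA label. No treated library reached the lowest NC library, and the NC mean was 1.81-fold that of MK1775 and 1.83-fold that of the siRNA-labelled group. Cldn3 fell by 0.79 under MK1775 (SE 0.079, limma adjusted p = 0.000142) and by 0.81 under the siRNA label (SE 0.079, adjusted p = 0.000119).

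Its neighbour Cldn4 lies 39.3 kb away on the minus strand, and the 2 genes are transcribed away from each other. Cldn4 was at 0.210, 0.0979 and 0.313 FPKM in NC, at 0.318, 0.261 and 0.331 under MK1775, and at 0.273, 0.263 and 0.232 under the siRNA label. The groups overlapped, and the gene was too low to be tested (exact two-sided permutation p = 0.2 and 0.6, where 3 against 3 cannot go below 0.1).

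Ocln, which encodes the tight junction protein occludin on chromosome 13, was at 4.84, 5.21 and 5.14 FPKM in NC, at 5.78, 5.26 and 5.36 under MK1775, and at 5.40, 5.03 and 5.42 under the siRNA label. The MK1775 libraries lay just above the NC libraries and the siRNA-labelled ones overlapped them. Differences were 0.09 under MK1775 (95% interval -0.05 to 0.24, limma adjusted p = 0.287) and 0.05 under the siRNA label (95% interval -0.10 to 0.20, adjusted p = 0.552). The intervals exclude a difference as large as that of Cdh1 or Cldn3.

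The 6 genes below the minimum were described by their values. Epcam, a surface adhesion molecule of epithelia, was at 0.0335 to 0.0986 FPKM in NC, at 0.511, 0.470 and 0.323 under MK1775, and at 0.218, 0.471 and 0.573 under the siRNA label. Grhl1, a relative of Grhl2, was at 0.0690 to 0.102 in NC, 0.195 to 0.250 under MK1775 and 0.224 to 0.308 under the siRNA label. For both genes every treated library lay above every NC library, and the group mean of Grhl1 was 2.55-fold that of NC under MK1775 and 3.04-fold under the siRNA label. All of these levels stayed under 0.6 FPKM.

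Ovol1, listed at 0 in all NC libraries, was at 0.189, 0.175 and 0.177 FPKM under MK1775 and at 0.185, 0.116 and 0 under the siRNA label. Esrp1 was listed at 0, 0.0490 and 0 in NC, at 0.0608, 0.0623 and 0.0349 under MK1775 and at 0.101, 0.0948 and 0.0551 under the siRNA label. Cldn7 was the reverse, at 0.0926, 0.0929 and 0.0665 in NC and listed at 0 in 4 of the 6 treated libraries. With MK1775, 3 of these 6 genes (Epcam, Grhl1 and Ovol1) were wholly above NC and 1 (Cldn7) wholly below. Among the 18239 genes under the minimum with a value above 0, the shares were 17.3% wholly above and 2.77% wholly below. In the siRNA-labelled libraries Epcam, Grhl1 and Esrp1 were wholly above NC and none was wholly below, where the shares were 18.0% and 2.18%. Some low genes of other cell types (named after their values were seen) did likewise, and others did not. The myeloid Itgam was listed at 0 in NC and at 0.167 to 0.545 FPKM in the treated libraries, and the endothelial Pecam1 at 0 and at 0.0870 to 0.220. The stromal Pdgfrb was wholly below NC, going from 1.44 ± 0.0786 to 0.790 ± 0.0252 and 0.768 ± 0.120 FPKM (SD, n = 3). The 4 endothelial markers together overlapped, at 0.351 to 0.468 FPKM in NC, 0.338 to 0.395 under MK1775 and 0.364 to 0.513 under the siRNA label. The part of cells of other types in the result for Epcam, Grhl1, Ovol1 and Esrp1 was not tested.

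When limma was run without the minimum, on 28692 genes, 6 of the 10 genes were called in each comparison, 5 higher and 1 lower, against 17.7% of all genes under MK1775 (10.1% higher, 7.56% lower) and 20.2% under the siRNA label (12.4% higher, 7.84% lower). Epcam rose by 0.44 under MK1775 (SE 0.099, limma adjusted p = 0.0196) and by 0.42 under the siRNA label (adjusted p = 0.0215). Grhl1 rose by 0.17 and 0.22 (adjusted p = 0.0133 and 0.00374). Ovol1 was called under MK1775 alone (0.24, adjusted p = 0.0187, and 0.13, adjusted p = 0.136) and Esrp1 under the siRNA label alone (0.09, adjusted p = 0.0382, and 0.05, adjusted p = 0.255), but neither differed between the treated groups in a direct test (limma adjusted p = 0.739 for both, where 0.0383% of all genes were called, 0.0209% higher and 0.0174% lower under MK1775).

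MK1775 and the libraries labelled Wee1 siRNA were also compared directly. None of the 4 genes tested was called, and limma called 1 gene in all, 0.00957% of those tested (Tmx2, a thioredoxin-related membrane protein, named after its value was seen). Named transcripts of Tmx2 had means of 23.6 FPKM under MK1775 and 10.4 under the siRNA label. The assembled locus that Tmx2 shares with Ctnnd1 also holds 9 unnamed transcripts, at 9.49 and 17.8 FPKM together. Whether FPKM moved between named and unnamed transcripts there was not tested. Of the 4 genes, 0 passed an unadjusted p of 0.05. The difference, MK1775 minus the siRNA-labelled libraries, was 0.00 for Grhl2 (95% interval -0.17 to 0.17), 0.00 for Cdh1 (-0.16 to 0.16), 0.02 for Cldn3 (-0.16 to 0.20) and 0.04 for Ocln (-0.11 to 0.19), on the log2(FPKM + 1) scale. Differences within these bounds could not have been told from 0 with 3 libraries per group.

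At the level of transcripts, Cdh1 and Grhl2 were each carried almost wholly by 1 full-length transcript. For Grhl2 it was the 16-exon transcript ENSMUST00000022895, with 95.9% of the gene's FPKM over the 9 libraries. A shorter 7-exon transcript reached 0.435 FPKM in MK1775 replicate 2 and was at or near 0 elsewhere. Ocln was divided among 3 transcripts of 9 exons. ENSMUST00000069756 held 65.4% of its FPKM, at 2.93 ± 0.155 in NC, 3.92 ± 0.486 under MK1775 and 3.48 ± 0.393 under the siRNA label (SD, n = 3). The other two, ENSMUST00000022140 and ENSMUST00000160859, varied between libraries of the same group, the latter from 0 to 1.53 in NC, while their sum with the first stayed near 5.

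Epcam was assigned to a single transcript in each library, but not to the same one. ENSMUST00000053577, of 10 exons, carried all of it in NC, in MK1775 replicate 3 and in siRNA-labelled replicates 1 and 2. ENSMUST00000234623, of 9 exons, carried all of it in MK1775 replicates 1 and 2 and siRNA-labelled replicate 3, at 0.511, 0.470 and 0.573 FPKM. These 2 transcripts end at the same base, and at under 0.6 FPKM the assignment of reads to one or the other rests on few of them.

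**Figure D2:**
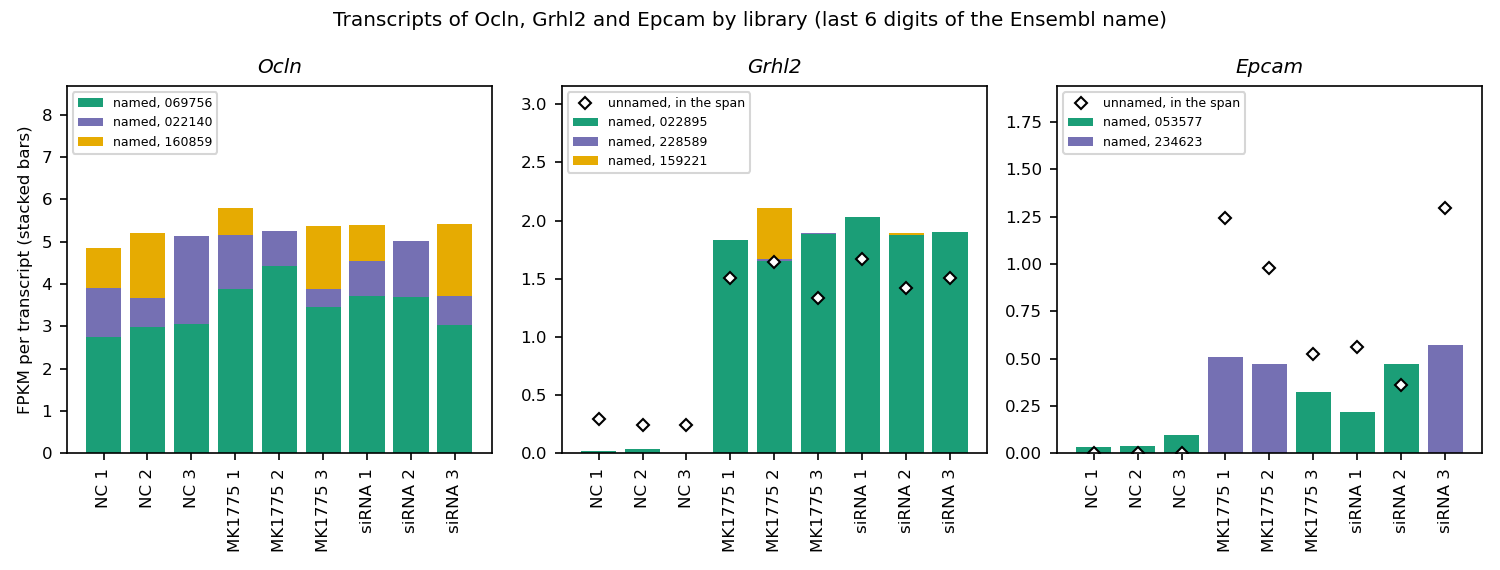
FPKM per transcript (linear axis) of Ocln, Grhl2 and Epcam in each library. Stacked bars are named transcripts, and open diamonds are unnamed assembled transcripts within the gene's span, which are not part of the sums. Grhl2 rests on 1 transcript in nearly every treated library, and Epcam on 1 of 2 transcripts that alternate between libraries.

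Other genes of the same structures were taken from 7 lists with 81 genes in all. Their counts are read against the shares called over all genes tested, under MK1775 17.9% higher and 23.1% lower, and under the siRNA label 19.6% higher and 23.2% lower. The lists were written with earlier results of these data known.

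The partners of Cdh1 at the adherens junction moved in both directions. Of 10 genes 8 were tested, and 3 rose and 2 fell in each comparison with NC (median 0.07 under MK1775 and 0.06 under the siRNA label). Alpha-catenin (Ctnna1), which links cadherin to actin, went from 74.2 ± 0.694 FPKM in NC to 97.2 ± 1.33 under MK1775 and 100.6 ± 1.42 under the siRNA label (SD, n = 3; limma adjusted p = 6.05e-05 and 3.16e-05). Plakoglobin (Jup) rose from 9.27 ± 0.768 to 13.8 ± 0.651 and 14.7 ± 0.837, and the actin-binding Vcl rose 1.30-fold and 1.27-fold. The immunoglobulin-like adhesion gene Nectin2 fell from 22.8 ± 1.16 to 14.9 ± 0.322 and 13.4 ± 1.29, and its relative Nectin1 (named after its values were seen) from 1.87 ± 0.122 to 1.07 ± 0.0703 and 1.14 ± 0.269. Beta-catenin (Ctnnb1, named after its values were seen) was at 157 ± 4.05, 149 ± 4.40 and 154 ± 3.69 and was not called. With only the most abundant transcript of a gene counted, Ctnna1 was no longer called (0.25 and 0.28).

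Among other tight junction genes 8 of 18 were tested, with 2 rises and 1 fall in each comparison (median 0.33 and 0.22). Cgnl1, a paracingulin that ties junctions to the cytoskeleton, fell from 19.5 ± 1.53 FPKM to 12.2 ± 0.439 under MK1775 and 12.4 ± 0.210 under the siRNA label. Cldn12, a claudin outside the classic group, rose from 14.4 ± 0.541 to 20.7 ± 0.242 and 19.2 ± 1.39, and Lsr, a protein of tricellular junctions, rose 1.23-fold and 1.22-fold. With the most abundant transcript alone, Cldn12 was no longer called in either comparison (0.02 and 0.11), nor was Lsr under MK1775 (0.20). Cldn3 and Cldn12, the only claudins at or above 1 FPKM among those listed, differed from NC in opposite directions.

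Of 9 desmosome genes 3 were tested and 2 rose in each comparison. Plakophilin 3 (Pkp3) was at 3.52, 8.14 and 7.70 FPKM in NC and at 14.7 to 24.6 in the treated libraries, and plakophilin 2 (Pkp2) went from 5.22 ± 0.434 to 8.58 ± 0.308 and 7.89 ± 0.299. The core desmosome genes Dsp, Dsg2 and Dsc2 (named after their values were seen) stayed under 0.2 FPKM in every library.

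Among 10 polarity genes, 9 were tested. Of these 3 were called higher under MK1775, 4 were called higher under the siRNA label and none was called lower. Scrib (named after its values were seen) was lower without a call (-0.33 and -0.48, limma adjusted p = 0.175 and 0.0591). The apical determinant Crb3 showed the most marked rise. It was at 0.0894, 0.0927 and 0 FPKM in NC, at 5.24, 5.25 and 4.40 under MK1775, and at 6.11, 4.72 and 6.28 under the siRNA label (2.49 and 2.65, SE 0.11 each, limma adjusted p = 2.99e-06 and 1.94e-06). Like Grhl2, it was near 0 in every NC library and above 1 FPKM in every treated one, and so passed the minimum through the treated libraries alone; without a minimum the adjusted p of Crb3 was 1.44e-05 and 9.34e-06. The size of its difference depended on the setting, at 1.79 and 1.93 with the most abundant transcript and at 5.03 and 5.23 with a pseudocount of 0.1. Pard6a and Pard6b, which bind the Par3 scaffold, rose from 1.92 ± 0.206 to 4.59 ± 0.671 and 5.21 ± 0.411 and from 6.10 ± 0.185 to 9.17 ± 0.664 and 8.56 ± 0.123. The additional rise under the siRNA label, that of Pard3 (0.48, limma adjusted p = 0.0486, named after its value was seen), ended in 11 of 17 alternatives and reversed in 1. It ended when NC replicate 1 (0.36) or 3 (0.51), any MK1775 replicate (0.48), or siRNA-labelled replicate 1 (0.36) or 2 (0.43) was left out.

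Of 14 other epithelial transcription and splicing factors 7 were tested, with 2 rises and 2 falls under MK1775 and 2 rises and 1 fall under the siRNA label (median -0.09 and 0.05). Klf5, a zinc-finger factor of epithelial progenitors, rose from 12.2 ± 0.134 FPKM to 28.5 ± 1.31 and 25.8 ± 1.34, and the Ets factor Elf3 rose 2.09-fold and 2.06-fold. Tfap2c, an AP-2 factor of luminal mammary cells, fell from 2.50 ± 0.211 to 1.06 ± 0.241 and 0.851 ± 0.121. The second fall under MK1775 was that of the AP-2 factor Tfap2a (-0.30, limma adjusted p = 0.0186, named after its value was seen), which was not called without NC replicate 2 (-0.28) or 3 (-0.30) or MK1775 replicate 3 (-0.23), with quantile normalization (-0.24), or with the most abundant transcript alone, where it was close to 0 (-0.07, adjusted p = 0.859). The rise of Elf3 under MK1775 was not called with the most abundant transcript alone (0.62). Esrp2 (named after its values were seen), the relative of Esrp1, was at 3.17 ± 0.313, 2.93 ± 0.198 and 3.33 ± 0.378 and was not called, so most of the Esrp FPKM in every group was that of Esrp2.

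Of 10 surface proteases, inhibitors and Epcam partners 4 were tested and 2 rose in each comparison. Spint1 and Spint2, inhibitors of matriptase-type proteases known to cleave Epcam, rose from 19.2 ± 0.757 to 27.7 ± 0.760 and 28.1 ± 0.595 FPKM and from 107 ± 4.93 to 126 ± 4.81 and 122 ± 6.92. The call of Spint2 under the siRNA label (0.18, limma adjusted p = 0.0331) ended in 10 of 19 alternatives. These include the fits without NC replicate 1 (0.15) or 3 (0.17), without MK1775 replicate 1 (0.18), and without siRNA-labelled replicate 1 (0.15) or 2 (0.16).

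Of 10 EMT transcription factors and mesenchymal genes 6 were tested, with 1 rise and 2 falls in each comparison (median of named transcripts -0.42 and -0.58). The 6 include Vim (-1.38 and -0.76) and Snai1 (-0.40 and -0.81, named after its values were seen), neither of them called. With all transcripts of a locus counted, Vim was at -0.17 and -0.34 and Snai1 at -0.15 and -0.05. Zeb2 (named after its values were seen) was then at 0.18 and -0.03, and Twist1 at -1.08 and -1.04. Fn1 was at 0.74 and 0.66, and S100a4 at -0.43 and -0.39. No median was taken over loci. Twist1, an EMT factor known to repress Cdh1, was at 19.4, 20.4 and 19.4 FPKM in NC, at 8.16, 9.62 and 8.78 under MK1775, and at 9.35, 9.38 and 8.59 under the siRNA label. It fell by 1.08 and 1.04 (SE 0.068 each, limma adjusted p = 1.54e-05 and 1.83e-05). Whether the fall of Twist1 bears on the rise of Cdh1 was not tested. Fibronectin (Fn1), a matrix protein of mesenchymal cells, went the other way, from 45.5 ± 2.45 to 76.0 ± 2.49 and 74.1 ± 6.99, and S100a4 fell from 761 ± 50.4 to 561 ± 23.1 and 575 ± 14.3. With the most abundant transcript alone Fn1 was no longer called (0.45 and 0.56). Named transcripts of Vim were at 118 to 803 FPKM over the 9 libraries with no separation of the groups. Another 2 unnamed transcripts of the Vim locus held 519 to 740 FPKM as group means, and with them the locus was at 1192 ± 61.4 in NC, 1058 ± 39.0 under MK1775 and 943 ± 63.9 under the siRNA label (SD, n = 3). The transcription factors Zeb1 and Snai2 and the cadherin Cdh2 (named after their values were seen) were at or near 0. The keratins Krt8 and Krt18 rose to 290.4 ± 5.99 and 475 ± 4.91 under MK1775 and to 267 ± 3.78 and 435 ± 1.24 under the siRNA label. Krt7 (named after its values were seen) fell from 24.4 ± 4.03 to 13.9 ± 2.48 and 14.0 ± 4.04; it was not called without NC replicate 3 (-0.65 and -0.66), without MK1775 replicate 3 under MK1775 (-0.64), or without siRNA-labelled replicate 2 under the siRNA label (-0.77).

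**Figure D3:**
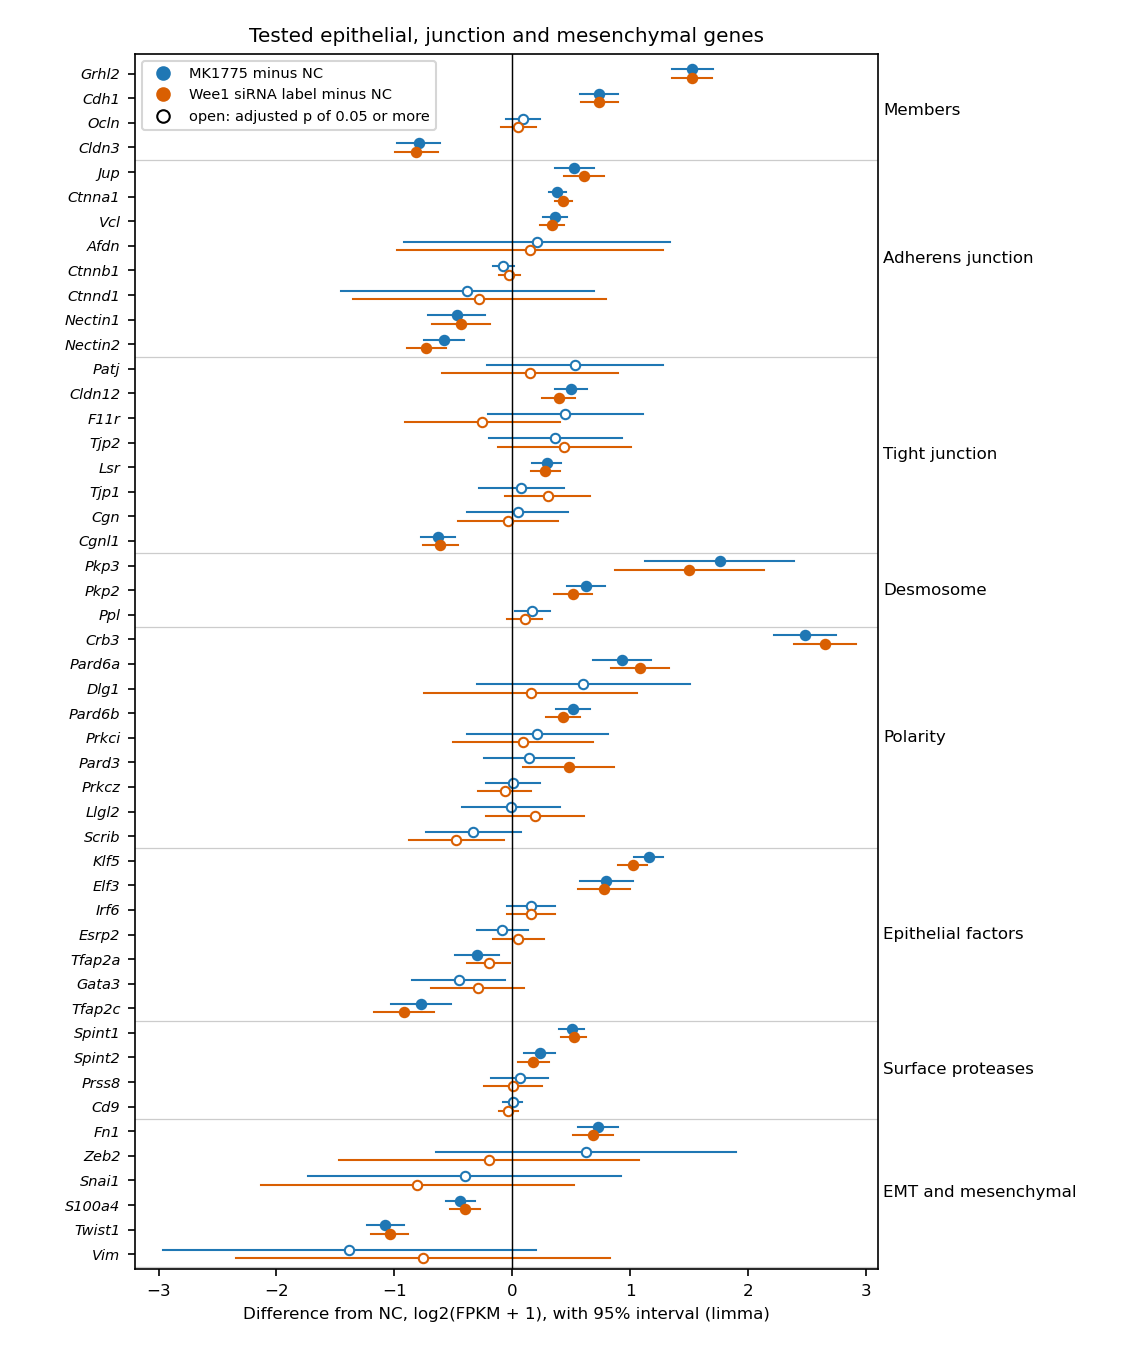
Differences from NC on the log2(FPKM + 1) scale for the tested members and the tested genes of the 7 lists, with 95% intervals from limma; blue is MK1775, orange the siRNA-labelled libraries, filled points have an adjusted p under 0.05. Grhl2 and Cdh1 lie to the right of 0 and Cldn3 to the left, with intervals apart from 0, and Crb3 shows the largest difference of the genes drawn.

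The genes whose pattern over the 9 libraries was most like that of a member were found by the root mean square difference of log2(FPKM + 1) values, each centred on its NC mean, among 10452 other genes. Closest to Cdh1 were Ghitm, a mitochondrial membrane protein (0.060, from 44.9 ± 0.580 FPKM in NC to 76.8 ± 1.13 and 72.0 ± 3.06), Cnksr1, a signalling scaffold (0.060), and Ccdc137 (0.064). Closest to Grhl2 were the serine protease Prss23 (0.079, from 3.24 ± 0.130 to 11.2 ± 0.553 and 10.4 ± 0.214), the amino acid transporter Slc1a4 (0.083) and the zinc-finger factor Klf6 (0.091). Closest to Cldn3 were Endod1 (0.049, from 21.1 ± 1.14 to 11.6 ± 0.717 and 11.8 ± 0.704), the mitochondrial lipid enzyme Tamm41 (0.061) and the Elongator subunit Elp6 (0.064). None of these 9 is on the lists of junction and epithelial genes, and on this measure a gene is close through the size of its change and its small spread, whatever its level.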

How the data were processed

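The authors deposited FPKM values per transcript and library (158719 transcripts, 17991 of them assembled and without a gene name); per the submitters' processing notes, FastQC, Trim Galore, HISAT2 and StringTie were used with the build GRCm39, without versions. Per the labels' protocols, libraries were made with an NEBNext Ultra kit from 1.0 µg of total RNA. Strand-aware quantification is not stated, so overlapping genes cannot be told apart. Without counts the depth is unknown, and intervals are those of the fit.

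FPKM were summed per gene name (19 names on several chromosomes left out). Genes whose mean reached 1 FPKM were tested in R 4.3.3 with limma 3.58.1 (1 fit of all 9 libraries, 3 group means, eBayes with trend, two-sided, Benjamini-Hochberg adjustment over all genes tested) on log2(FPKM + 1), which understates changes of low genes. The fit was tested on simulated data. Exact permutation tests used scipy 1.17.1. Coordinates of genes are spans of named transcripts in the deposited table; promoter sequences are RefSeq's, of another build (GRCm38.p6).

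The members and lists were chosen with earlier results of these data known. The text names all members, Wee1, of each list up to 4 tested genes with the smallest adjusted p in either comparison with NC, and the 3 genes most like Cdh1, Grhl2 and Cldn3. Krt8, Krt18 and the cell type markers come from a marker list, and exceptions are given as such. 1 listed name, Pals1, was not matched. Alternatives were a pseudocount of 0.1, no minimum, a minimum of 5 FPKM, 2 other scalings, the most abundant transcript, unnamed transcripts added to loci with 1 gene name, a replicate block, fits of 2 groups, eBayes without trend, and leaving out each library.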

Additional observations from a re-analysis of the deposited data

Results flagged for a closer look

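Unnamed assembled transcripts lie within the spans of Epcam and Grhl2 and are not part of the sums reported for either gene; their signal was above that of every NC library in all treated libraries. The one within Epcam (chromosome 17, 87955749 to 87956000, a single exon of 252 bases, strand not given) was listed at 0 in NC and had a mean of 0.915 FPKM under MK1775 and 0.738 under the Wee1 siRNA label. Its values were 1.24, 0.977 and 0.527 under MK1775 and 0.560, 0.363 and 1.29 under the siRNA label. The 3 highest of these were in the libraries where the 9-exon transcript ENSMUST00000234623 carried the FPKM of Epcam. The one within Grhl2 (chromosome 15, 37281872 to 37282850, a single exon of 979 bases, strand not given) was at 0.262 ± 0.0287 FPKM in NC, 1.49 ± 0.155 under MK1775 and 1.53 ± 0.127 under the siRNA label (SD, n = 3). In NC it was low, at 0.245 to 0.295 FPKM, but above the summed named transcripts of Grhl2 in every NC library. In every treated library it was below that sum. Whether either belongs to the gene around it was not tested.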

How the results depend on the processing

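In both comparisons with NC, Cdh1, Grhl2 and Cldn3 kept their call and direction in each of the 17 to 19 alternatives that tested them, with ranges over the 2 comparisons of 0.67 to 0.91 for Cdh1, 1.01 to 4.09 for Grhl2 and -0.89 to -0.72 for Cldn3, and Ocln stayed uncalled (0.01 to 0.32). Grhl2 was under the minimum when only 2 groups were fitted, and Cdh1 and Grhl2 were under a minimum of 5 FPKM. The number of members called went from 3 to 6 without a minimum and to 1 with a minimum of 5 FPKM, in each comparison with NC, since other genes were tested, and was 3 whichever library was left out. Differences between the treated groups changed sign around 0 with no call: Cdh1 was at 0.0143 with median-of-ratios scaling, 0.0468 with quantile normalization and -0.0338 to 0.0393 when a library was left out, Cldn3 at -0.0224 to 0.0947 and Grhl2 at -0.0380 to 0.0278 when one was left out, and Grhl2 at -0.0724 with the most abundant transcript. With unnamed transcripts added Pard3 was at -0.0819 under MK1775 and -0.0487 under the siRNA label; the cause was not tested. Between the treated groups limma called 11 genes without a minimum, 2 with the most abundant transcript, 0 with the replicate block and 0 to 3 when a library was left out (1 in the reported fit; 616 at an unadjusted p under 0.05). In the comparisons with NC the replicate block gave 3881 and 4079 calls against 4282 and 4474, and 3 members each; deviations of same-numbered libraries from their group means correlated at -0.12 to 0.04, so the numbers are not taken to pair the libraries. Unknown depth limits what can be said of the 6 genes under 1 FPKM.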
